A study of Mus musculus with 12 samples.

Results

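The 10 genes described here encode dual-specificity MAPK phosphatases (*Dusp1*, *Dusp2*, *Dusp3*, *Dusp4*, *Dusp5*, *Dusp6*, *Dusp7*, *Dusp10*, *Dusp16* and *Dusp22*), chosen by symbol from the 53379 genes of the count table, and 10 of 10 passed the filter on low counts that left 12386 genes for testing. Their RNA was followed in bone marrow-derived macrophages (BMDMs) treated with fenoterol, an agonist of the β2-adrenergic receptor. BMDMs from 4 adult male C57Bl/6J mice, grown from marrow of femur and tibia in medium with L929 cell conditioned medium, were left untreated or were given 1 μM fenoterol for 1 h or 4 h in that same medium. Each mouse gave 1 library to each of the 3 groups. The labels name no vehicle for the untreated cells, and all 3 groups share the conditioned medium, which supplies the macrophage growth factor M-CSF.

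MAP kinases are switched on by phosphorylation of a threonine and a tyrosine in their activation loop, and dual-specificity MAPK phosphatases switch them off by removing both phosphates. The family is usually sorted by location and substrate. *Dusp1*, *Dusp2*, *Dusp4* and *Dusp5* encode nuclear enzymes whose genes are transcribed quickly after stimulation, *Dusp6* and *Dusp7* encode cytoplasmic enzymes that prefer ERK, and *Dusp10* and *Dusp16* encode enzymes that prefer JNK and p38. *Dusp3* and *Dusp22* encode small atypical phosphatases that lack the kinase-binding domain of the others. In macrophages these enzymes are known as brakes on the MAPK signals that drive cytokine production, and *Dusp1* is the best studied of them in this respect.

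In the set of RefSeq promoters used (GRCm38.p6), sequences were matched to 9 of the 10 genes, and none was matched to *Dusp4*. The 250 bases before the annotated start are shown for *Dusp1* and *Dusp5*, the 2 genes with the highest fold rise, for *Dusp16*, which rose at 1 h and was back near its untreated count at 4 h, and for *Dusp7*, which fell the most. They are printed 5′ to 3′ on the strand of the gene. The starts are those of RefSeq, whereas the gene coordinates given further below are those of GENCODE M21. The *Dusp1* window lies inside the GENCODE span of its gene, and the *Dusp5* window overlaps the first bases of its gene. The sequence of *Dusp1* is at chr17:26508473-26508722 (minus strand), of *Dusp5* at chr19:53528895-53529144 (plus strand), of *Dusp16* at chr6:134792629-134792878 (minus strand) and of *Dusp7* at chr9:106368382-106368631 (plus strand). Capitals mark matches to the cAMP response element (CRE, TGACGTCA), to its half-site (TGACG on either strand, read as CGTCA on the strand shown) and to the CArG box, the site bound by serum response factor.
Dusp1: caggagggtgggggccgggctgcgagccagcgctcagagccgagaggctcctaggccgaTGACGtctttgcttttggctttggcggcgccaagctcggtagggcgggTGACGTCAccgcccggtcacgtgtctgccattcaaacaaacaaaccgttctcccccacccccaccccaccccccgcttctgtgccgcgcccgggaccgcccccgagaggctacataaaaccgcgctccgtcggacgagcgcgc
Dusp5: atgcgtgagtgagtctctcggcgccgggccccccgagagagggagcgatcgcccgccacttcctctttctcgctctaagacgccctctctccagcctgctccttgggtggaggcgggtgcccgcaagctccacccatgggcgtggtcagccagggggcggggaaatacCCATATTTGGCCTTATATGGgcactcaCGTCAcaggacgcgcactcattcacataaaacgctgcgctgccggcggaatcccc
Dusp16: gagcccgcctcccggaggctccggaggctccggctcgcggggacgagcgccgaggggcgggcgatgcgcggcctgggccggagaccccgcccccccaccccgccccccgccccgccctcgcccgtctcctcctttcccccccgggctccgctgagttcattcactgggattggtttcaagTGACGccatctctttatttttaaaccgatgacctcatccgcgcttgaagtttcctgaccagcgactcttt
Dusp7: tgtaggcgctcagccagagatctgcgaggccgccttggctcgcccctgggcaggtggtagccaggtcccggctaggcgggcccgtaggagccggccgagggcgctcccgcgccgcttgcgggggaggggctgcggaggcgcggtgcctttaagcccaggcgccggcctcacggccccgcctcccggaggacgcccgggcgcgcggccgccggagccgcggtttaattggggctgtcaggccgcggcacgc

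The *Dusp1* promoter held 1 full CRE, which began 143 bases before the start, and 3 half-site matches, of which 2 lay within the full CRE and the other began at 191 bases. A full CRE was found in 1.55% of 32851 promoter windows of this length, and a half-site in 17.8%. The *Dusp5* promoter held 1 half-site at 55 bases and 2 adjacent CArG boxes at 82 and 72 bases before the start. A CArG box was found in 1.47% of the windows, and 2 or more in 6 windows (0.0183%). The *Dusp16* promoter held 1 half-site at 70 bases. The windows of *Dusp2*, *Dusp3*, *Dusp6*, *Dusp7*, *Dusp10* and *Dusp22* held no match to any of the 3 motifs, and these letters may lie outside the window. The CArG box was added to the search after the promoter of *Dusp5* had been seen.

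The libraries held 14580533 to 24153284 counts, and normalized counts are counts scaled by the trimmed mean of M-values (TMM) to the mean library size. The 6 macrophage markers were present in every group, at a summed level of 37140 to 39240 CPM (counts scaled to a common library total) in untreated cells, 33370 to 39580 at 1 h and 31460 to 36110 at 4 h, and at 4 h 1 of the 6 passed the test as higher and 4 as lower. The marker that changed most was *Mertk*, which encodes a receptor for the uptake of dead cells, at a mean of 197 CPM in untreated cells, 172 at 1 h and 69.0 at 4 h (log2 -1.51 at 4 h, adjusted p = 5.127e-11, edgeR). The 3 T cell, 2 erythroid and 2 mast cell markers had at most 3 counts in any library. Both endothelial markers passed the test at 4 h, at summed levels of 2.75 to 5.80 CPM in untreated cells, 4.71 to 9.35 at 1 h and 6.87 to 13.5 at 4 h. Neutrophil and fibroblast markers summed to at most 31.6 and 32.2 CPM in any library. The part of these markers in the changes below was not tested. In bulk RNA, a change in the share of cells that express a gene and a change in the RNA per cell cannot be told apart.

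After 1 h of fenoterol, 5 of the 10 phosphatase genes were higher and 4 were lower than in untreated BMDMs at an adjusted p under 0.05 (edgeR's quasi-likelihood test with Benjamini-Hochberg adjustment over all genes tested), where 20.1% of all genes tested passed (10.0% higher and 10.1% lower). *Dusp5*, *Dusp1*, *Dusp16*, *Dusp2* and *Dusp3* rose, *Dusp7*, *Dusp4*, *Dusp6* and *Dusp22* fell, and *Dusp10* did not pass. At 4 h, 4 genes were higher (*Dusp5*, *Dusp1*, *Dusp6* and *Dusp10*) and 3 were lower (*Dusp7*, *Dusp22* and *Dusp4*), against 40.0% of all genes passing (19.7% higher and 20.4% lower). Among the called genes, 4 of the 10 changed 2-fold or more at each time point, where 3.92% of all genes did so at 1 h and 8.10% at 4 h. The median size of change among the 10 genes, regardless of sign, was 0.89 on the log2 scale at 1 h and 0.95 at 4 h, and over all genes it was 0.15 and 0.23. The signed medians of the 10 genes were 0.53 and -0.03, so the large changes went in both directions.

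**Figure D1:**
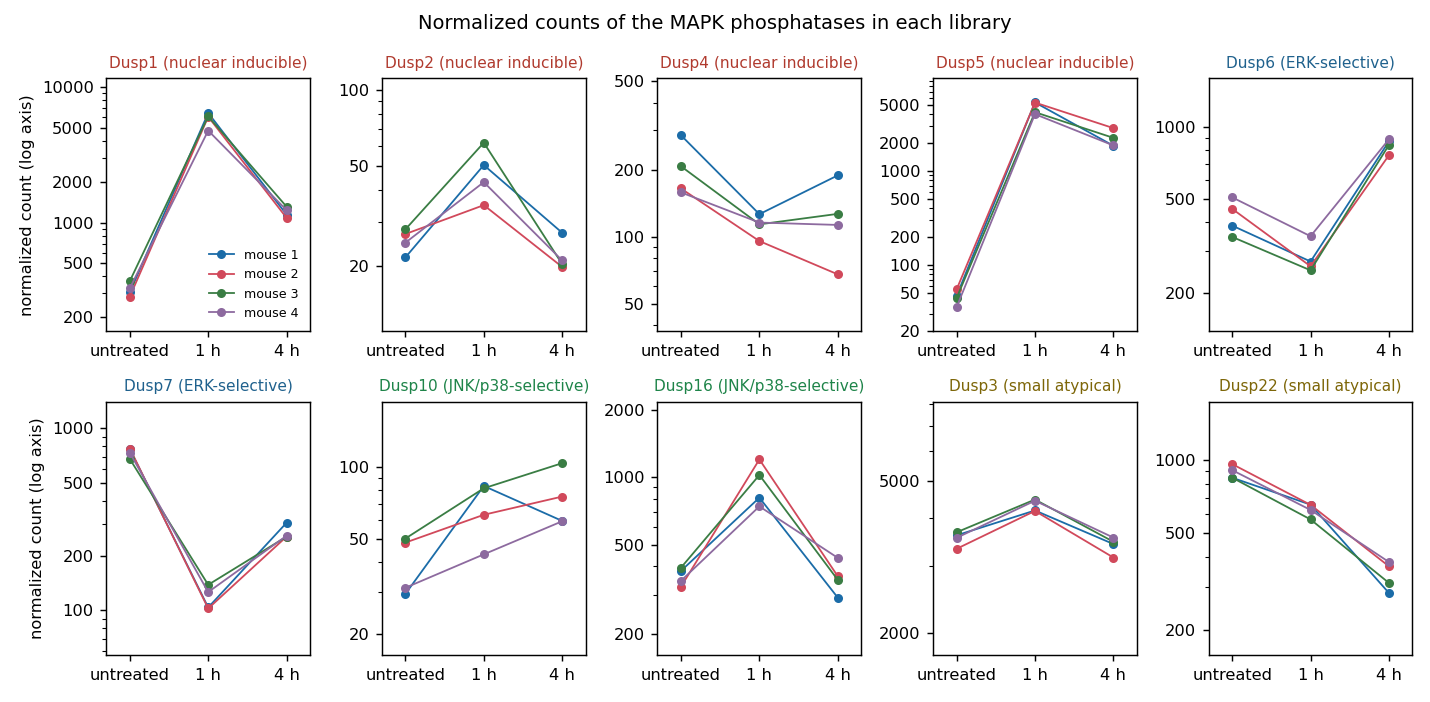
Normalized counts (log axis) of the 10 phosphatase genes in each library, with the untreated, 1 h and 4 h libraries of a mouse joined by a line. *Dusp1* and *Dusp5* peaked at 1 h in 4 of 4 mice, *Dusp7* was lowest at 1 h in 4 of 4, and *Dusp6* was lowest at 1 h and highest at 4 h in 4 of 4.

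Between 1 h and 4 h of fenoterol, 6 of the 10 genes fell (*Dusp1*, *Dusp2*, *Dusp3*, *Dusp5*, *Dusp16* and *Dusp22*) and 2 rose (*Dusp6* and *Dusp7*), while 38.5% of all genes passed this test (18.7% higher and 19.8% lower). Among the called genes, 6 of the 10 changed 2-fold or more, as did 6.34% of all genes. The groups did not overlap for 8 of the 10 genes between 1 h and untreated cells, for 6 between 4 h and untreated cells and for 8 between 4 h and 1 h. Over all genes tested this held for 23.0%, 37.6% and 35.9%. The comparisons with untreated cells share the 4 untreated libraries.

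**Figure D2:**
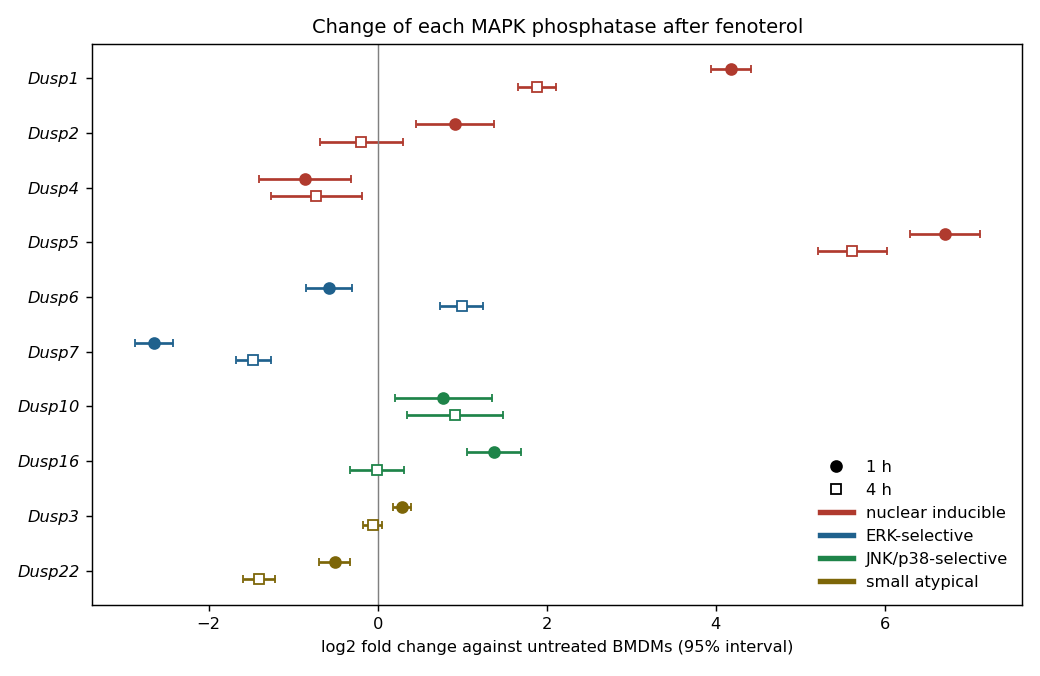
Log2 fold change against untreated BMDMs at 1 h (filled circles) and 4 h (open squares), with 95% intervals from the edgeR fit, 4 libraries per group. Colours mark the 4 classes, and within the nuclear, ERK-selective and atypical classes genes lie on both sides of 0 at 1 h or 4 h.

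*Dusp1* (ENSMUSG00000024190, chr17:26505590-26562128, minus strand), the nuclear phosphatase best known for acting on p38 and JNK, was a gene of moderate abundance in untreated BMDMs. Its normalized counts in mice 1 to 4 were 305.4, 283.9, 370.1 and 327.1 in untreated cells, 6443, 6050, 6081 and 4777 at 1 h, and 1145, 1083, 1310 and 1235 at 4 h. The 3 groups did not overlap, and the mouse with the smallest count at 1 h was still above every other group. The rise was 18.1-fold at 1 h (log2 4.18, SE 0.11, adjusted p = 2.061e-12 by edgeR) and 3.70-fold at 4 h (log2 1.89, SE 0.10, adjusted p = 3.319e-09). From 1 h to 4 h the count fell by 2.29 on the log2 scale (adjusted p = 5.052e-10).

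*Dusp5* (ENSMUSG00000034765, chr19:53529109-53542431, plus strand), which encodes a nuclear phosphatase specific for ERK, was near the bottom of the family in untreated cells and had the largest fold change of the 10 genes. In mice 1 to 4 it had normalized counts of 46.71, 54.9, 44.34 and 35.5 in untreated cells, 5379, 5361, 4233 and 4035 at 1 h, and 1860, 2866, 2257 and 1874 at 4 h. No group overlapped another. The count was 105-fold higher at 1 h (log2 6.72, SE 0.19, adjusted p = 5.212e-12) and 49.0-fold higher at 4 h (log2 5.61, SE 0.19, adjusted p = 3.837e-11, edgeR). Its later fall of 1.10 on the log2 scale (SE 0.13, adjusted p = 1.701e-05) was smaller than that of *Dusp1*, a difference that is compared within libraries below. Of its exon bases, 22.1% are also covered by a gene annotated on the other strand, which had 0 counts.

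The other nuclear genes behaved differently. *Dusp2* (ENSMUSG00000027368), an inducible phosphatase of immune cells at chr2:127336159-127338376 (plus strand), was scarce, with 20 to 29 raw counts in untreated libraries, 31 to 63 at 1 h and 19 to 27 at 4 h. In the untreated libraries the normalized counts were 21.63, 26.78, 27.95 and 24.74, followed by 50.31, 34.88, 61.73 and 43.04 at 1 h and 27.09, 19.82, 20.35 and 21.03 at 4 h. The 1 h group lay above both others in every library. It rose by 0.92 (log2, SE 0.21, adjusted p = 0.006907, edgeR) at 1 h, and at 4 h the difference from untreated cells was -0.19 (95% interval -0.68 to 0.30, adjusted p = 0.5439).

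*Dusp4* (ENSMUSG00000031530, chr8:34807297-34819894, plus strand), which encodes a nuclear phosphatase for ERK and JNK, was the nuclear gene that fell. Its normalized counts were 285.5, 164.7, 207.2 and 158.2 in untreated cells, 126.3, 95.63, 113.7 and 115.8 at 1 h, and 188.6, 67.79, 126.7 and 113.0 at 4 h. The untreated and 1 h groups did not overlap, the untreated and 4 h groups did, and the count was lower in 4 of 4 mice at each time point. The log2 fold change was -0.86 (SE 0.25, adjusted p = 0.02665) at 1 h and -0.73 (SE 0.25, adjusted p = 0.0325) at 4 h in the edgeR fit. Both calls were close to the threshold. Without the untreated library of mouse 1 the values were -0.65 (adjusted p = 0.1034) and -0.51 (adjusted p = 0.1304), and without the 4 h library of mouse 2 the 4 h value was -0.53 (adjusted p = 0.07883). At 1 h the adjusted p also passed above 0.05 without the untreated library of mouse 3 or the 1 h library of mouse 2, 3 or 4, with log2 values of -0.85, -0.79, -0.86 and -0.87 and adjusted p of 0.05277, 0.07619, 0.06062 and 0.05157 in that order. At 4 h it did so without the untreated library of mouse 3 or the 4 h library of mouse 3 or 4 (-0.73, -0.74 and -0.68, adjusted p = 0.05663, 0.06087 and 0.0783) and with only the 2 groups compared in the fit (-0.725, adjusted p = 0.05638). With the mouse as a block, the adjusted p was 0.0003052 at 1 h and 0.0003595 at 4 h, the lowest among the alternatives, which reached 0.1034 and 0.1304.

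The ERK-selective genes moved in opposite directions at 4 h. *Dusp6* (ENSMUSG00000019960, chr10:99263231-99267489, plus strand), whose product is the main cytoplasmic phosphatase of ERK and whose transcription is itself driven by ERK signalling, had normalized counts of 385.0, 452.6, 345.1 and 505.7 in untreated cells, 272.1, 259.9, 249.9 and 347.4 at 1 h, and 867.9, 759.2, 838.8 and 885.7 at 4 h. The untreated and 1 h groups overlapped by 1 library on each side, although the count was lower at 1 h in 4 of 4 mice, and every 4 h library lay above every other. The log2 fold change was -0.58 at 1 h (SE 0.12, adjusted p = 0.00388) and 0.99 at 4 h (SE 0.12, adjusted p = 9.768e-06, edgeR), and the count rose by 1.57 between the time points (adjusted p = 1.745e-07). *Dusp6* was the 1 gene of the 10 that passed in opposite directions at 1 h and 4 h, as did 1.19% of all genes.

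*Dusp7* (ENSMUSG00000053716, chr9:106368632-106375724, plus strand), the close relative of *Dusp6*, had the largest fall of the family. Normalized counts of *Dusp7* were 770.8, 775.3, 679.5 and 734.8 in untreated cells, 103.7, 102.4, 138.2 and 126.0 at 1 h, and 303.2, 254.5, 254.3 and 257.1 at 4 h. The 3 groups did not overlap, and 4 h lay between the others in every mouse. The count was 6.28-fold lower at 1 h (log2 -2.65, SE 0.11, adjusted p = 1.195e-10) and 2.77-fold lower at 4 h (log2 -1.47, SE 0.10, adjusted p = 2.046e-08, edgeR). It recovered by 1.18 on the log2 scale from 1 h to 4 h (SE 0.11, adjusted p = 7.859e-07).

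Of the JNK/p38-selective genes, *Dusp16* (ENSMUSG00000030203, chr6:134715468-134792625, minus strand) was transiently higher. Its normalized counts were 382.4, 325.4, 395.2 and 345.3 in untreated cells, 810.1, 1199, 1022 and 740.9 at 1 h, and 290.7, 361.9, 348.7 and 437.0 at 4 h. Every 1 h library lay above the others, while the untreated and 4 h groups overlapped. The rise was 2.60-fold at 1 h (log2 1.38, SE 0.15, adjusted p = 6.894e-06, edgeR), and the 95% interval of the log2 difference at 4 h was -0.33 to 0.31 (adjusted p = 0.9713).

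*Dusp10* (ENSMUSG00000039384, chr1:184013302-184075636, plus strand) was measured at 29 to 112 raw counts per library. Its normalized counts were 29.41, 48.2, 50.12 and 31.2 in untreated cells, 83.16, 63.01, 81.33 and 43.04 at 1 h, and 59.39, 75.09, 103.6 and 59.2 at 4 h. The 1 h group overlapped the untreated group through mouse 4, and the 4 h group lay above it. The log2 fold change of 0.78 at 1 h (SE 0.27) missed the threshold (adjusted p = 0.05576, edgeR) and passed it with the mouse as a block (0.79, SE 0.20, adjusted p = 0.006557), with a range of 0.006557 to 0.1545 over the alternatives. The count was higher in 4 of 4 mice. At 4 h it rose by 0.91 (SE 0.27, adjusted p = 0.01318), a call that was lost without the 4 h library of mouse 3 (0.71, adjusted p = 0.05245), where the alternatives ranged from 0.0008075 to 0.05245. Between 1 h and 4 h the difference was 0.13 (95% interval -0.41 to 0.68, adjusted p = 0.722).

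The small atypical genes differed from each other in both abundance and direction. *Dusp3* (ENSMUSG00000003518, chr11:101971143-101987013, minus strand), which encodes a small phosphatase that can act on ERK and JNK, had a mean normalized count of 3545 ± 151 (SD, n = 4) in untreated cells, 4329 ± 160 at 1 h and 3407 ± 174 at 4 h. The rise at 1 h was small (log2 0.29, SE 0.05, adjusted p = 0.0009716, edgeR) but the groups did not overlap, and at 4 h the difference was -0.06 (95% interval -0.17 to 0.05, adjusted p = 0.4184).

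*Dusp22* (ENSMUSG00000069255, chr13:30659999-30711231, plus strand), a phosphatase linked to JNK signalling, fell in steps. Its normalized counts were 846.0, 962.7, 846.3 and 909.1 in untreated cells, 655.0, 653.7, 569.3 and 623.0 at 1 h, and 283.4, 365.0, 311.7 and 380.1 at 4 h, so each later group lay below the earlier one. The log2 fold change was -0.51 at 1 h (SE 0.09, adjusted p = 0.000573) and -1.41 at 4 h (SE 0.09, adjusted p = 1.304e-08, edgeR), a count 2.65-fold lower at 4 h. Of the 10 genes, 1.87% of the 50-base windows of *Dusp22* and 0.419% of those of *Dusp3* also occur in other annotated genes, and the others share none.

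To set the genes side by side, counts were expressed as TMM-scaled CPM per kb of exon. On this scale the summed level of the 10 genes was 79.0 ± 1.29 (SD, n = 4) in untreated cells, 258.5 ± 23.0 at 1 h and 128.7 ± 6.20 at 4 h. The nuclear genes made up 13.1% of the sum in untreated cells, 73.8% at 1 h and 51.9% at 4 h. The ERK-selective genes made up 22.9%, 2.51% and 13.8%, the JNK/p38-selective genes 3.84%, 2.82% and 2.79%, and the atypical genes 60.1%, 20.8% and 31.5%. The summed level itself rose from 10.3 to 191 and then 66.9 for the nuclear genes, while for the ERK-selective genes it was 18.1, 6.39 and 17.7. The JNK/p38-selective sum was 3.04, 7.31 and 3.60, and the atypical sum 47.5, 53.4 and 40.5. At 4 h the ERK-selective sum was thus near its untreated value with another makeup, *Dusp6* at 13.6 and *Dusp7* at 4.06 against 6.88 and 11.2 in untreated cells. In the nuclear class, *Dusp5* and *Dusp1* held 37.8% and 34.7% of the family sum at 1 h. *Dusp2* held 0.471% and *Dusp4* 0.819%, and the level of *Dusp4* had fallen from 3.80 to 2.10. These sums and shares are descriptions and were not tested.

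**Figure D3:**
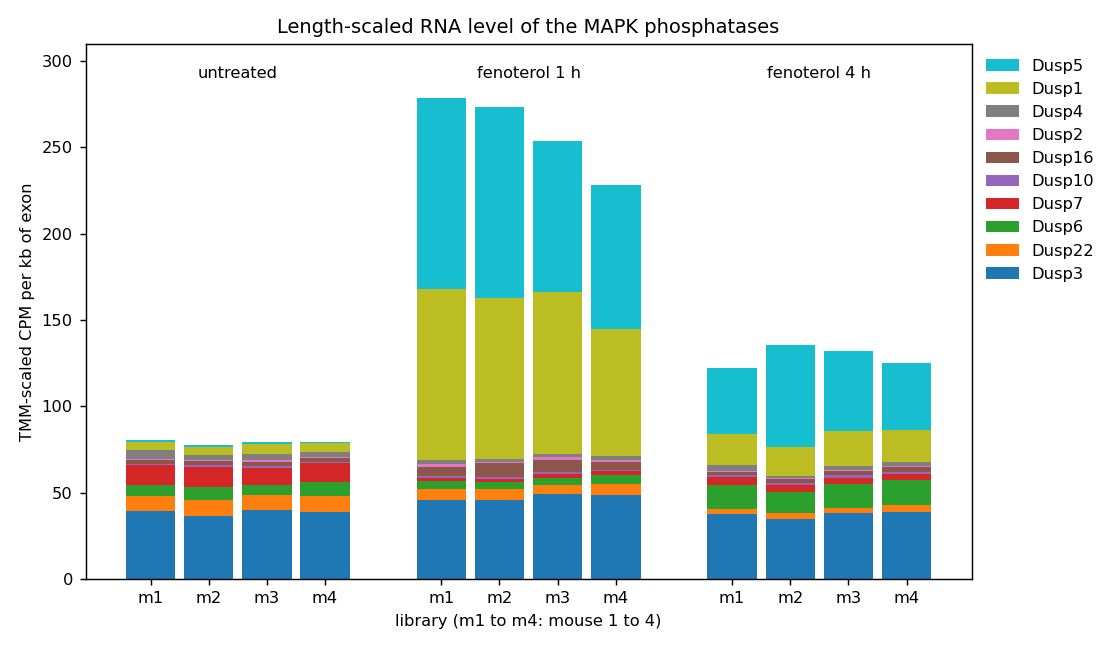
Length-scaled RNA level (TMM-scaled CPM per kb of exon, linear axis from 0) of the 10 genes stacked for each of the 12 libraries. *Dusp3* and *Dusp7* fill most of the untreated bars, and *Dusp5* and *Dusp1* most of the 1 h bars, with summed levels of 77.3 to 80.3 in untreated cells and 228 to 279 at 1 h.

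In untreated cells the order of these levels was *Dusp3* (38.6), *Dusp7* (11.2), *Dusp22* (8.90), *Dusp6* (6.88), *Dusp1* (4.96), *Dusp4* (3.80), *Dusp16* (2.37), *Dusp5* (0.936), *Dusp10* (0.667) and *Dusp2* (0.644). Neighbours overlapped between libraries from *Dusp6* to *Dusp1*, from *Dusp1* to *Dusp4*, from *Dusp5* to *Dusp10* and from *Dusp10* to *Dusp2*. At 1 h the levels of *Dusp5* (98.1) and *Dusp1* (90.0) led and overlapped each other, followed by *Dusp3* (47.2), and the 7 remaining genes were at 6.25 or less. *Dusp7* had dropped to 1.79, which overlapped both *Dusp4* (2.10) and *Dusp2* (1.21). At 4 h *Dusp5* (45.7) and *Dusp3* (37.1) overlapped at the top, ahead of *Dusp1* (18.4) and *Dusp6* (13.6). With the length of the longest transcript in place of all exons, *Dusp1* stood above *Dusp5* at 1 h (128.8 against 98.1), so the order of these 2 genes depends on the length used.

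Genes of the same class were also compared as the ratio of their raw counts within each library, which needs no scaling between libraries. These tests were chosen after the fold changes had been seen. For 4 pairs and 3 contrasts, 12 exact permutation tests over samples (two-sided) were made, and the smallest p that 4 against 4 libraries can give is 0.0286. The ratio of *Dusp5* to *Dusp1* in mice 1 to 4 was 0.153, 0.193, 0.120 and 0.109 in untreated cells, 0.835, 0.886, 0.696 and 0.845 at 1 h, and 1.62, 2.65, 1.72 and 1.52 at 4 h. The 3 groups did not overlap, and the ratio rose by 2.54 on the log2 scale at 1 h and by a further 1.17 from 1 h to 4 h (exact permutation p = 0.0286 for each, adjusted p = 0.0343). *Dusp5* RNA thus fell less between the time points than *Dusp1* RNA in 4 of 4 mice.

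The ratio of *Dusp6* to *Dusp7* was 0.499 to 0.688 in untreated cells, 1.81 to 2.76 at 1 h and 2.86 to 3.44 at 4 h. It was higher than in untreated cells by 2.09 at 1 h and by 2.47 at 4 h on the log2 scale, and higher at 4 h than at 1 h by 0.39 (exact permutation p = 0.0286 for each, adjusted p = 0.0343). The relation of these 2 ERK phosphatases in untreated cells was therefore turned around at both time points in 4 of 4 mice. The ratio of *Dusp16* to *Dusp10* was 6.75 to 13.0 in untreated cells, 9.74 to 19.0 at 1 h and 3.37 to 7.38 at 4 h. It fell from 1 h to 4 h by 1.52 on the log2 scale (exact permutation p = 0.0286, adjusted p = 0.0343), and its differences from untreated cells did not pass (0.60 at 1 h, exact permutation p = 0.143, and -0.93 at 4 h, p = 0.0571, adjusted p = 0.0623). This test does not pair the libraries of a mouse, and the ratio was higher in 3 of 4 mice at 1 h and lower in 4 of 4 at 4 h. The ratio of *Dusp3* to *Dusp22* was 3.46 to 4.35, 6.40 to 7.87 and 8.66 to 12.1, without overlap between groups, and was higher by 0.80 at 1 h and 1.36 at 4 h on the log2 scale (exact permutation p = 0.0286 for each, adjusted p = 0.0343).

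**Figure D4:**
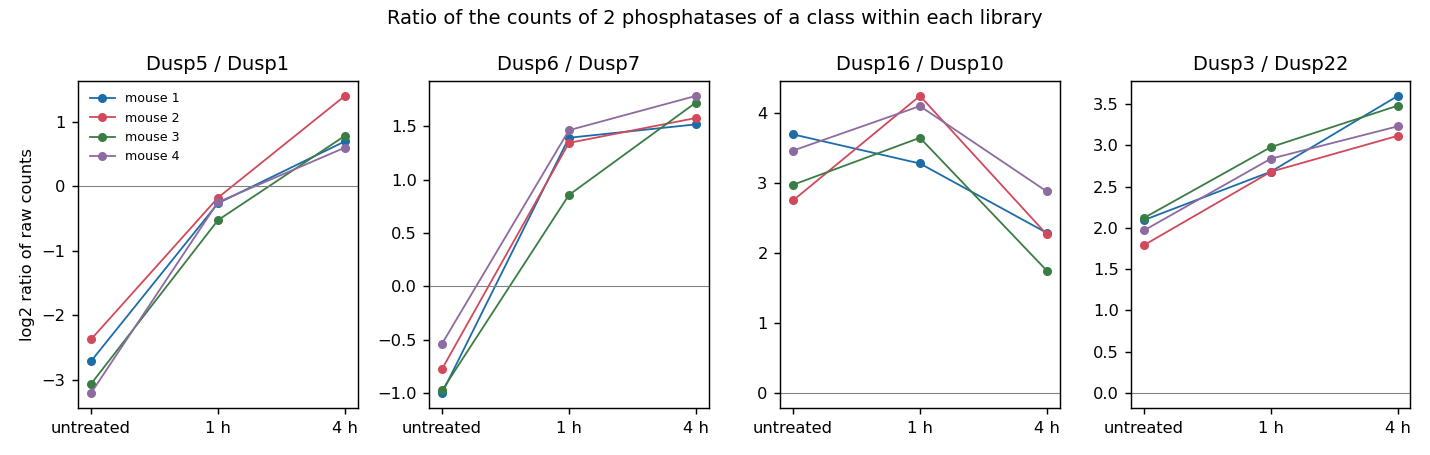
Log2 ratio of the raw counts of both genes of a pair within each library, joined by mouse across untreated, 1 h and 4 h; the grey line marks equal counts. The count of *Dusp6* passed from below to above that of *Dusp7* by 1 h in 4 of 4 mice. The count of *Dusp5* passed above that of *Dusp1* at 4 h. These counts are not scaled by length, and per kb of exon *Dusp5* (98.1) and *Dusp1* (90.0) already overlapped at 1 h.

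The gene whose log2 CPM was most like that of a phosphatase gene over the 12 libraries was sought among the other genes that averaged 50 or more normalized counts (10288 genes, and 10289 for *Dusp2*). These are descriptions over libraries of 3 groups from the same 4 mice. *Dusp7* was most like *Map3k8* (Pearson's r = 0.992), which encodes an upstream kinase that activates the ERK pathway in macrophages and which fell by 1.64 on the log2 scale at 1 h and by 0.91 at 4 h. *Dusp1* was most like *Jdp2* (r = 0.996), which encodes a partner of JUN, and *Dusp5* was most like *Cfap43* (r = 0.999). *Dusp16* was most like *Jmy* (r = 0.964), *Dusp22* most like *Gpr160* (r = 0.993) and *Dusp6* most like *Trim39* (r = 0.974). For *Dusp2*, *Dusp4* and *Dusp3* the most alike genes were *Impact* (r = 0.909), *Pus7l* (r = 0.917) and *Mad2l1bp* (r = 0.964). Within the family, r was -0.988 between *Dusp1* and *Dusp7*, 0.906 between *Dusp1* and *Dusp5* and 0.297 between *Dusp6* and *Dusp7*.

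Genes of the kinase cascades on which these phosphatases act were examined as lists, to be read against the 20.1% of all genes that passed at 1 h and the 40.0% at 4 h. Of 19 ERK cascade genes tested, 2 were higher and 3 lower at 1 h, and 5 were higher and 5 lower at 4 h, with a median log2 fold change of 0.03 and -0.02, where the medians of all genes were -0.0049 and 0.0042. *Map3k8* fell from 745.1 to 238.3 at 1 h (log2 -1.64, SE 0.08, adjusted p = 8.952e-10, edgeR) and was at 396.0 at 4 h. *Rps6ka1*, which encodes a kinase downstream of ERK, fell by 0.38 at 1 h (adjusted p = 4.699e-05), and *Nras* rose by 0.23 (adjusted p = 0.005424). At 4 h *Braf* rose by 0.55 (adjusted p = 4.291e-05) and the scaffold gene *Ksr1* fell by 0.48 (adjusted p = 0.02147).

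Of 13 JNK cascade genes tested, 2 were higher and 1 was lower at 1 h, and 3 were higher and 3 lower at 4 h, beside 20.1% and 40.0% of all genes. *Map2k4*, which encodes a kinase that phosphorylates JNK, rose by 0.28 at 1 h (adjusted p = 0.008308, edgeR) and by 0.86 at 4 h (adjusted p = 1.037e-07). At 1 h *Mapk9*, which encodes a JNK, rose by 0.19 (adjusted p = 0.0426) and *Map3k11* fell by 0.29 (adjusted p = 0.01388). At 4 h *Map3k7* rose by 0.32 (adjusted p = 0.001536), and *Map3k5* and *Map3k1* fell by 0.80 (adjusted p = 1.966e-06) and 0.40 (adjusted p = 0.0004353). Of 11 p38 cascade genes tested, 2 were higher and 1 lower at 1 h, and 3 were higher and 3 lower at 4 h, again beside 20.1% and 40.0% of all genes. *Map2k3*, which encodes an activator of p38, rose by 0.89 at 1 h (adjusted p = 2.565e-07) and by 1.09 at 4 h (adjusted p = 1.47e-08), whereas *Mapkapk2*, which encodes a p38 substrate kinase, fell from 8660 to 4691 normalized counts at 4 h (log2 -0.88, adjusted p = 1.059e-08). *Mapkapk3* rose by 0.18 at 1 h (adjusted p = 0.04207) and fell by 0.82 at 4 h (adjusted p = 4.733e-08). *Mknk1* fell by 0.20 at 1 h (adjusted p = 0.03403), and *Rps6ka5* rose by 0.46 at 4 h (adjusted p = 0.004019).

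Other inhibitors that feed back on ERK signalling gave 3 higher and 0 lower genes at 1 h and 4 higher and 2 lower at 4 h, of 9 tested, where 10.0% of all genes were higher and 10.1% lower at 1 h and 19.7% and 20.4% at 4 h. The median log2 fold changes of this list were 0.26 and 0.48, against -0.0049 and 0.0042 over all genes. The 4 h median was the value of *Il17rd*, which was not called (adjusted p = 0.4932, edgeR). *Il17rd* had 5 to 9 raw counts in untreated libraries and 2 to 20 at 4 h, so no shift of the list is read from that median. *Errfi1*, which encodes an inhibitor of the EGF receptor, rose from 203.1 to 982.5 normalized counts at 1 h (log2 2.27, SE 0.13, adjusted p = 5.589e-09, edgeR). *Spred2*, which encodes an inhibitor of RAF activation, rose by 1.88 at 1 h (adjusted p = 6.511e-09) and by 1.49 at 4 h (adjusted p = 5.024e-08), and *Spry2* rose by 1.44 (adjusted p = 2.608e-07) and 1.16 (adjusted p = 1.293e-06). Its relative *Spred1* fell by 1.21 at 4 h (adjusted p = 3.973e-08), as did *Rasa1*, which encodes a RAS GTPase activating protein, by 0.51 (adjusted p = 0.000358). Of 8 genes listed as transcribed in response to ERK, 4 passed the filter on low counts, so that no share of the list is read from them. The calls were 4 higher and 0 lower at 1 h and 2 higher and 1 lower at 4 h, beside 20.1% and 40.0% of all genes. *Phlda1* had 5 to 14 raw counts in untreated libraries, 180 to 215 at 1 h and 46 to 78 at 4 h. It passed that filter through the fenoterol libraries, so no fold change or test is given for it. The calls of *Phlda1* are among the higher ones counted at 1 h and at 4 h, and they are no separate evidence of a rise. *Ccnd1*, which encodes a cyclin, was higher by 0.85 at 1 h (adjusted p = 0.01359, edgeR, a value outside the rule for named genes) and lower at 4 h, where it fell by 0.75 (adjusted p = 0.01665). *Etv5*, also outside that rule, was higher by 0.93 at 1 h (adjusted p = 0.0003936, edgeR) and was not called at 4 h (0.11, adjusted p = 0.6105). *Spry2* belongs to both lists.

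Of the 11 other dual-specificity phosphatase genes tested, 2 were higher and 0 lower at 1 h, and 2 were higher and 1 lower at 4 h, beside 20.1% and 40.0% of all genes. *Dusp18* rose by 0.98 at 4 h (adjusted p = 0.0003558, edgeR) and *Dusp12* fell by 0.46 (adjusted p = 0.01395). The genes that were higher at 1 h, named after their values were seen, were *Dusp8*, which was at a mean of 67.3 normalized counts against 34.0 in untreated cells (adjusted p = 0.02456), and *Dusp14*, which had 0 to 4 raw counts in untreated libraries, 31 to 62 at 1 h and 12 to 20 at 4 h. *Dusp14* passed the filter on low counts through the fenoterol libraries, so its call is no separate evidence of a rise. It was the other gene called higher at 4 h. Of the 3 listed tyrosine phosphatases that act on MAPKs, *Ptpn7* was the 1 that was tested, with log2 differences of 0.02 and 0.01 and no call.

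**Figure D5:**
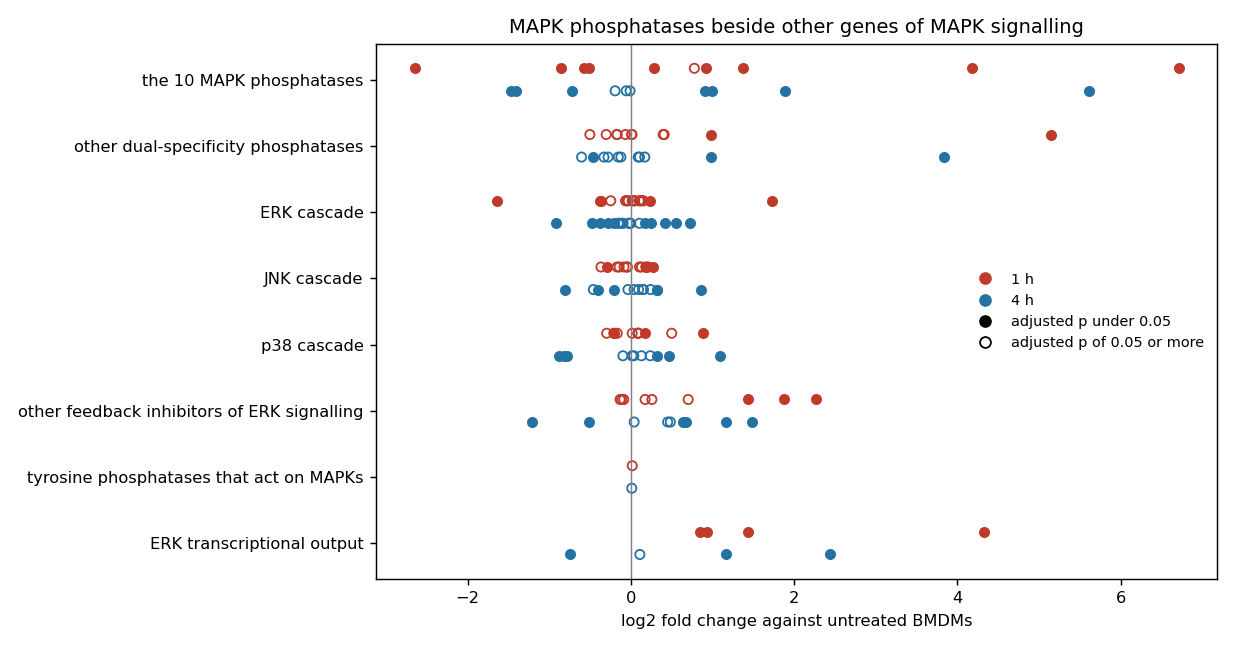
Log2 fold change against untreated BMDMs of the 10 MAPK phosphatase genes and of the tested genes of each MAPK list, at 1 h (red) and 4 h (blue), 1 point per gene, filled where the adjusted p was under 0.05. In the list of ERK transcriptional output, the filled points of *Phlda1* rest on 5 to 14 raw counts in untreated libraries. The 10 phosphatases ran from -2.65 to 6.72 at 1 h, the other dual-specificity phosphatases from -0.50 to 0.98 apart from *Dusp14*, whose point rests on 0 to 4 untreated counts, the other feedback inhibitors from -0.13 to 2.27 and the JNK cascade genes from -0.37 to 0.28.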

How the data were processed

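RNA was measured in 12 libraries (3 groups of 4). According to the submitters' processing notes and the paper, the authors aligned 50-base single-end reads (stranded mRNA kit) to GRCm38 using TopHat2 2.0.11 and counted them per gene with HTSeq 0.8.0. The deposited values are raw counts, not normalized. The strand option and the annotation release are not given in the sources used here. Symbols and coordinates came from GENCODE M21, to which 53274 of 53379 genes matched.

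From these counts, edgeR 4.0.16 (R 4.3.3) filtered genes with filterByExpr, scaled libraries by TMM (factors 0.953 to 1.04) and ran its quasi-likelihood test in a joint fit of all 12 libraries on the 3 groups, with Benjamini-Hochberg adjustment over 12386 genes per contrast and a threshold of 0.05. The paper used limma on vsn-normalized values and names no covariate. The vsn package was not used here, and limma-trend on log2 CPM (prior count 2) stands in for it as an alternative. The biological coefficient of variation was 0.112, and replicate libraries differed beyond counting error (chi-square per degree of freedom 9.29 to 19.4, 18 pairs). Levels are TMM-scaled CPM per kb of the union of exons. Ratios are log2 ratios of raw counts with no pseudocount, tested by exact permutation (SciPy 1.17.1).

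The labels give the mouse of each library. Deviations from the group means correlated at 0.290 to 0.561 between libraries of 1 mouse (12 pairs), and those of different mice at -0.304 to 0.0912 (36 pairs). Because each group was centred on its own mean, positive values within a mouse make those between mice negative on average. The values between mice are therefore no separate comparison. The fit with the mouse as a block was an alternative, beside DESeq2 1.42.0, limma-voom and limma-trend (limma 3.58.1), RLE scaling, library size only, no filter, a mean count of at least 50, only the 2 groups compared, a threshold of 0.01, the longest transcript as length, and leaving out 1 library at a time. The edgeR fits were tested on simulated data.

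The members, lists and tests were chosen with earlier results of these data known, and the ratio tests and their leave-one-out runs were added after the data were seen. Named beside the members were, per list and contrast, up to 2 rises and 2 falls with the largest change among genes that passed, averaged 50 or more normalized counts and moved the same way in 4 of 4 mice. For 4 h against 1 h, such list genes are not described, and some genes that the rules name are not reported here.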

Additional observations from a re-analysis of the deposited data

Results flagged for a closer look

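In the 4 h group, 1 library stood apart from the other 3 for *Dusp2* and *Dusp7*, both times that of mouse 1 by Dixon's test. Its normalized count of *Dusp2* was 27.09 against 19.82 to 21.03 in the others, and of *Dusp7* 303.2 against 254.3 to 257.1. Among 30 groups tested, chance sets a library apart in about 1 in 20, or 1.5 groups, and this was found in 2.

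For 8 of the 10 genes the response at 4 h differed from that at 1 h in the direct edgeR contrast of the time points. The log2 difference, 4 h minus 1 h, was -2.29 for *Dusp1*, -1.11 for *Dusp2*, -1.10 for *Dusp5*, 1.57 for *Dusp6*, 1.18 for *Dusp7*, -1.39 for *Dusp16*, -0.35 for *Dusp3* and -0.90 for *Dusp22*. The adjusted p was at most 0.000936 among them, with the same direction in 4 of 4 mice for each.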

How the results depend on the processing

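Of 627 recomputed fold changes, 601 kept their direction and their side of the threshold, 12 no longer passed, 6 newly passed and 8 changed sign. The 96 ratio differences with 1 library left out kept their direction, and no p was computed for them. Those that no longer passed were *Dusp4* at 1 h and 4 h and *Dusp10* at 4 h, and those that newly passed were *Dusp10* at 1 h (DESeq2, no filter, the replicate block, and without untreated library 3, 1 h library 4 or 4 h library 3). The sign changes were all in differences that did not pass. *Dusp16* at 4 h was 0.0162 with library size only and 0.0179, 0.0245, 0.0792 and 0.0069 without untreated library 1 or 3 or 4 h library 1 or 3 (range with 1 library left out, -0.1201 to 0.0792). From 1 h to 4 h, *Dusp4* was -0.133 without 4 h library 1 (range to 0.3313), and *Dusp10* was -0.0326 without 1 h library 4 and -0.0709 without 4 h library 3 (range to 0.248). Leaving out a library in turn gave 8 to 10 phosphatase genes called at 1 h, 5 to 7 at 4 h and 8 to 8 between the time points, and 2100 to 2482, 4463 to 4976 and 4209 to 4735 of all genes. With the mouse as a replicate block, 10, 7 and 8 of the 10 genes were called and 3348, 5870 and 5775 of all genes, and no call among the 10 other than that of *Dusp10* at 1 h changed. At an adjusted p under 0.01, 1580 of all genes were called at 1 h in place of 2493. With the longest transcript as length, the summed level of the family was 92.21 in untreated cells, 308.4 at 1 h and 144.3 at 4 h. Scaling by library size only gave medians of all genes of -0.07 at 1 h, 0.03 at 4 h and 0.10 from 1 h to 4 h on the log2 scale, against -0.0049, 0.0042 and 0.0074 with TMM. *Dusp2* and *Dusp10* had at most 112 raw counts in any library, which limits the precision of their values.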
